A study of Rattus norvegicus with 2 samples.

Results

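The genes described here are those of the deposited rat table whose names mark them as transcription factors or zinc finger proteins, compared between mesenchymal stem cells of rat bone marrow (bmMSCs) with and without introduced Pdx1 and Ngn3. A gene was taken when its name held transcription factor, homeobox, homeo box, forkhead, zinc finger, Kruppel or helix-loop-helix, and neither receptor nor kinase. It also had to carry a symbol and a rat gene identifier, and no annotation as a defense response gene. The words alone matched 52 genes. Leaving out the genes set aside by name, of which Pdx1 and Dlx3 were among the matches, left 50 of the 2325 genes in the table (2.15%). The rule uses names and annotations, not read counts, but the table itself is the authors' selection of genes that differed at least 2-fold.

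The study had 2 libraries, 1 per group, from bmMSCs of Sprague-Dawley rats at passage 3 to 5. The control cells were untransfected. The other cells had received Pdx1 and Ngn3 by transfection 10 days earlier. These genes encode a homeodomain factor of pancreas development and a helix-loop-helix factor of endocrine cell formation. No mock or single-factor transfection was analysed here, so the transfection itself and the introduced genes cannot be told apart. With 1 library per group there is no spread between cultures and no test, and every interval below covers counting error only.

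Transcription factors bind short DNA sequences through a folded domain, and the domain gives each family its name. Homeobox proteins use a helix that lies in the major groove, helix-loop-helix proteins pair up to grip an E-box, forkhead proteins use a winged helix, and Kruppel-type zinc fingers string several small zinc-held units along the DNA. Many zinc finger names, however, describe other zinc folds that bind RNA, protein or lipid chains, so the word alone does not make a gene a transcription factor. In marrow stromal cells such factors are known for steering bone, cartilage, fat and smooth muscle fates, and homeobox genes also keep a record of body position.

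The counts and RPKM implied library totals of 7800831 reads for untransfected and 7415094 reads for transfected cells. These are the totals behind the RPKM, and the table covers 21.7% and 20.2% of them. Pdx1 had 0 untransfected and 565 transfected reads. Neurog3, the gene of Ngn3, was looked up by symbol and was not found among the listed genes, so its level is not known here. Of 12 markers of mesenchymal stem cells 5 were listed, 3 higher and 2 lower. Their summed level was 2207 RPKM without and 982 RPKM with transfection. Most of it came from the 2 lower genes, Thy1 (1101 and 322 RPKM) and Itgb1 (1057 and 519 RPKM). Only genes that differed at least 2-fold are listed, so a marker's presence or absence there cannot check the cell label. RPKM scales reads by gene length and library total. From the markers of other cells, 3 of 12 blood cell genes were listed, 1 higher and 2 lower (summed 12.4 and 3.45 RPKM). Also listed were 1 of 6 endothelial genes, lower (5.30 and 1.57 RPKM), and 4 of 8 neuronal genes, all higher (16.4 and 81.8 RPKM). Of 8 smooth muscle and pericyte genes 7 were listed, 6 of them lower, with sums of 12189.8 and 3588 RPKM and with Rgs5 at 0 reads in untransfected cells. The part of these marker shifts in the results below was not tested.

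Of the 50 genes, 34 were higher and 16 lower in transfected cells, each by at least 2-fold with an interval that left out equality. In the whole table, where by selection every gene passed these limits (100%), 63.5% were higher and 36.5% lower. The members' shares, 68.0% and 32.0%, lay near that background. In RNA from whole cultures, a change in the number of cells that express a gene and a change in its RNA per cell cannot be told apart. Their changes were mostly modest. The median was 2.59-fold among the higher and 2.68-fold among the lower members, against 3.41-fold and 3.10-fold over the whole table, and 20 of the 34 higher members (58.8%) stayed under 3-fold, as did 42.0% of all higher genes. More than 5-fold differences were found for 5 of the 34 higher and 4 of the 16 lower members. In the whole table they were found for 484 of the 1476 higher and 212 of the 849 lower genes. Over all members the median log2 ratio was 1.06, beside 1.24 for all genes.

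Most of these genes were weakly expressed. Their median level was 3.86 RPKM without and 6.59 RPKM with transfection, beside 6.54 and 10.2 RPKM for all listed genes. In 15 members both libraries lay under 5 RPKM, as in 442 of all 2325 listed genes. In 7 members at least 1 library passed 20 RPKM, as in 904 of the 2325. Together the members held 9429 untransfected and 14382 transfected reads, which is 0.121% and 0.194% of the library totals. Reads over both libraries ranged from 19 for Dmrt1 to 7117 for Zmiz1, with a median of 222.

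**Figure D1:**
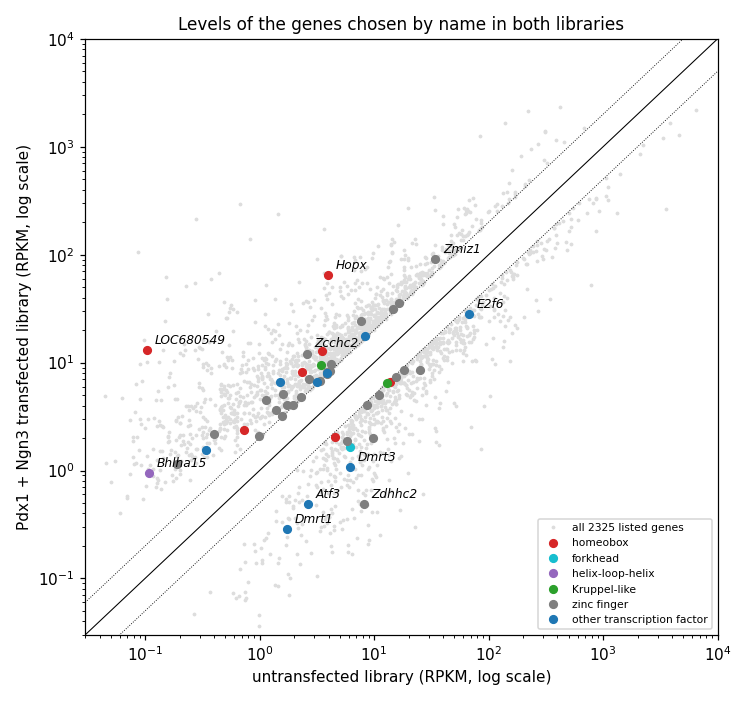
Level of each of the 50 genes in the untransfected (horizontal) and transfected library (vertical), both in RPKM on log axes, coloured by family, over all 2325 listed genes in pale grey. The solid line marks equal levels, the dotted lines 2-fold differences, and a library at 0 reads is drawn at its 3-read floor. Zmiz1 is the most abundant higher member (91.3 RPKM in transfected cells), E2f6 the most abundant lower member (67.8 RPKM in untransfected cells), and LOC680549 and Hopx lie farthest above the line.

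The calls of the smaller increases changed with the scaling of the libraries. Scaling with TMM or with the median of ratios, both of which assume that most genes in a table do not change, shifted every log2 ratio by -0.78 and -1.20. Here these factors had to be computed on a table of selected genes, each different by at least 2-fold, so that assumption is not met. By its construction the median of ratios brought the median log2 ratio of all listed genes from 1.24 to 0.038. Genes just above 2-fold therefore had to fall to about 1 or below, and these scalings cannot decide the direction of a single gene. The calls then became 11 higher and 16 lower members with TMM (background 31.6% and 36.5%) and 5 higher and 16 lower with the median of ratios (background 22% and 36.5%). With the median of ratios 15 of the 34 higher members went below 1, as did 263 of the 1476 higher genes of the whole table. Higher members were then 23.8% of the members' calls in place of 68.0%, and higher genes 37.6% of all calls in place of 63.5%. Both shifts are downward, so no lower call could be lost. Sums of reads over the table shifted the ratios up by 0.10, and 11 in place of 16 lower members then passed 2-fold (background 31.8% lower).

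**Figure D2:**
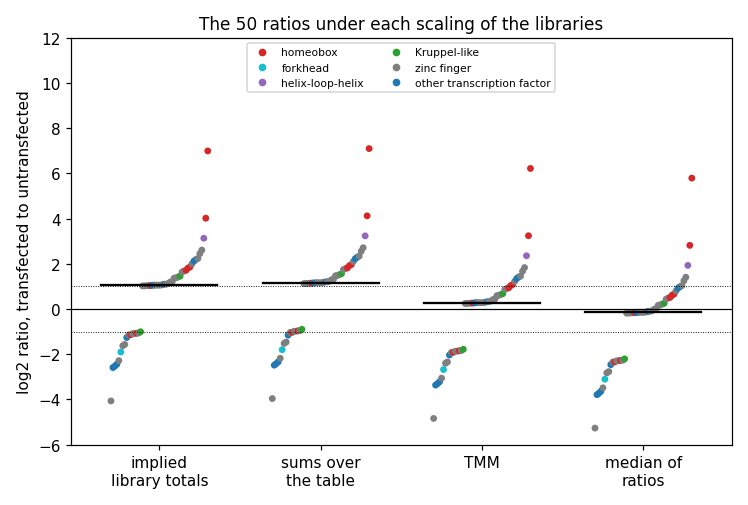
The log2 ratios of all 50 genes (vertical axis) under 4 scalings of the libraries, 1 point per gene in order of its ratio and coloured by family, with black bars at the medians and dotted lines at 2-fold. The median is 1.06 with the implied library totals and -0.14 with the median of ratios, and the cluster of points just above 1 in the first column lies just under 0 in the last.

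Of the 8 homeobox genes 6 were higher and 2 lower, beside 63.5% and 36.5% of the whole table. Under median-of-ratios scaling 1 of the 6, Six4, went below 1, as did 263 of the 1476 higher genes of the whole table. The largest difference of any member was in a gene the table lists only by the predicted symbol LOC680549, with a name that calls it similar to Pbx/knotted 1 homeobox 2. It was singled out after its values were seen. The RefSeq gene table gives the symbol Pknox2 for its identifier. Pknox2 belongs to the TALE class of homeodomain proteins, which bind DNA together with Pbx partners. LOC680549 had 3 reads in untransfected and 364 reads in transfected cells, or 0.103 RPKM (interval 0.0213 to 0.302) and 13.2 RPKM (11.9 to 14.6). The intervals of the levels did not overlap, and the ratio was 128-fold higher with an interval of 43.3 to 622, with only 3 untransfected reads behind it.

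Hopx, an unusually small homeodomain protein that lacks the residues for DNA contact and works through partner proteins, was next. It had 34 and 524 reads, which is 3.99 and 64.8 RPKM. In the transfected library Hopx was the second most abundant member after Zmiz1. The ratio was 16.2-fold higher (interval 11.5 to 23.7) and stayed at 2.82 on the log2 scale under median-of-ratios scaling.

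The promoters of LOC680549 and Hopx are shown because, among higher members with a promoter, these had the largest interval bounds nearest to 1. The introduced genes encode a homeodomain and a helix-loop-helix factor. Each promoter holds the 250 bases before the annotated gene start, from RefSeq, assembly GRCr8, written in the direction of the gene. Capitals mark the homeodomain core TAAT (or ATTA, its reverse) and the E-box CANNTG, which reads alike on both strands. LOC680549 lies on the minus strand at chr8:44979755-44980004 and Hopx on the plus strand at chr14:31429163-31429412.
LOC680549: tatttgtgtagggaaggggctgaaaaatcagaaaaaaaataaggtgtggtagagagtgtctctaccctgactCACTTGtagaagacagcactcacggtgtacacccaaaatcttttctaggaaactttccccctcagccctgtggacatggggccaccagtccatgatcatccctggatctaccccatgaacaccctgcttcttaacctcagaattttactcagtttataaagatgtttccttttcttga
Hopx: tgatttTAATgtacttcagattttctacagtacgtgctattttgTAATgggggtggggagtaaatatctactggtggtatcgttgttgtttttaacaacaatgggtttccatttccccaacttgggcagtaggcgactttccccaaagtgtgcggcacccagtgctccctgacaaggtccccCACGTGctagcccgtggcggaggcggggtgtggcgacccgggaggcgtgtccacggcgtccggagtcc
The LOC680549 window holds 0 TAAT cores and 1 E-box, and the Hopx window 2 TAAT cores and 1 E-box. Both motifs are common: of 27457 rat genes with a promoter in the table (the first listed start of each), 56.3% hold a TAAT core and 65.2% an E-box in this window. Among the 39 members with a promoter, 18 (46.2%) hold a TAAT core and 23 (59.0%) an E-box. The longer forms TAATTA and CAGATG (or CATCTG, its reverse) occurred in 1 and 6 of the 39 (2.56% and 15.4%), against 4.94% and 13.7% of all promoters. A match is a run of letters and not a binding site.

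Zhx3 and Zhx2 encode repressors that carry both zinc fingers and homeodomains, and both were higher. Zhx3 had 99 and 342 reads (3.50 and 12.7 RPKM), 3.63-fold higher (interval 2.90 to 4.59). Zhx2 had 15 and 50 reads (2.35 and 8.23 RPKM), 3.51-fold higher (1.94 to 6.72), counted on a partial cDNA of 819 bases. Six4, a muscle progenitor factor, had 184 and 359 reads (3.95 and 8.11 RPKM), 2.05-fold higher (1.71 to 2.47), or -0.16 on the log2 scale under median-of-ratios scaling.

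The lower homeobox genes both belong to the Hox system of body position. Meis1, a TALE protein that binds DNA beside Hox and Pbx factors, had 272 reads in untransfected and 123 reads in transfected cells (13.9 and 6.62 RPKM), 2.10-fold lower (1.69 to 2.62). Hoxd13, the most posterior gene of its cluster and a factor of digit formation, had 88 and 38 reads (4.54 and 2.06 RPKM) and was 2.20-fold lower (1.49 to 3.31). Thus the listed TALE genes went opposite ways: Meis1 was above LOC680549 in untransfected cells, at 13.9 against 0.103 RPKM, and below it in transfected cells, at 6.62 against 13.2 RPKM.

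**Figure D3:**
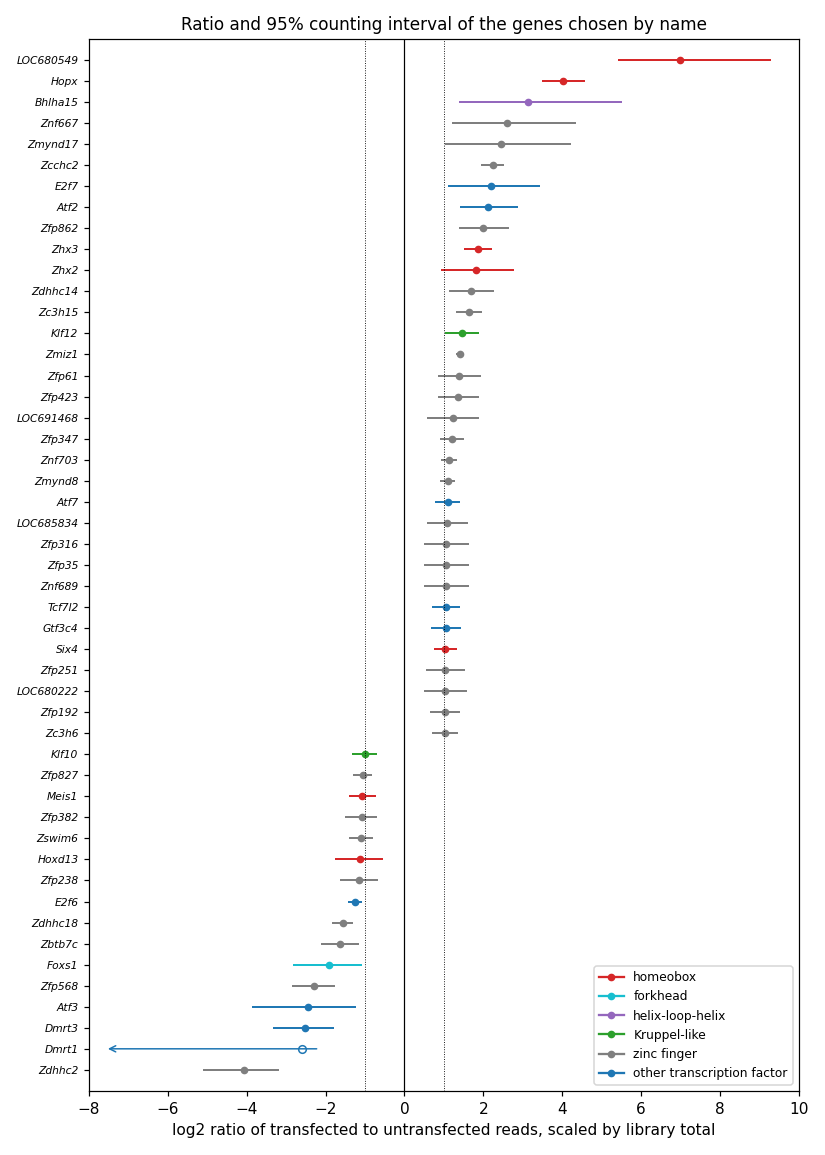
The log2 ratio of transfected to untransfected reads for 49 of the 50 genes (points) with its 95% counting interval (bars), ordered by ratio and coloured by family. The dotted lines mark 2-fold, and the open point of Dmrt1 is its bound at the 3-read floor, with an arrow because its interval has no end on that side. LOC680549 (6.996) and Zdhhc2 (-4.07) are the ends of the range, and a run of zinc finger genes sits close to 1.

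Bhlha15 and Foxs1 were the single helix-loop-helix and forkhead members. Bhlha15, also called Mist1, shapes the secretory apparatus of pancreatic acinar and other exocrine cells. It had 3 reads in untransfected and 25 reads in transfected cells, 8.77-fold higher with a wide interval of 2.68 to 45.4. The level stayed low in both libraries, at 0.108 and 0.951 RPKM. Foxs1, a forkhead factor of pericytes and vascular smooth muscle, had 63 and 16 reads (6.21 and 1.66 RPKM) and was 3.74-fold lower (2.14 to 6.94). It moved in the same direction as 6 of the 7 listed smooth muscle and pericyte markers, whose part in this difference was not tested.

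The Kruppel-like genes went opposite ways. Klf12, a repressor with Kruppel-type fingers, had 71 and 185 reads (3.47 and 9.52 RPKM), 2.74-fold higher (2.07 to 3.66). Klf10, an early gene induced by TGF-beta, had 317 and 150 reads (13.0 and 6.49 RPKM), 2.01-fold lower (1.65 to 2.46). Klf10 was the higher of the pair in untransfected cells and Klf12 in transfected cells.

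Among the 9 members named simply as transcription factors, 5 were higher and 4 lower, beside 63.5% and 36.5% of the whole table. Under median-of-ratios scaling 3 of the 5 went below 1, as did 263 of the 1476 higher genes of the whole table. The lower ones had the larger differences, with a median of 5.59-fold against 2.14-fold for the higher ones. Dmrt1 and Dmrt3 carry the DM domain, a zinc-binding DNA contact first known from sex determination. Dmrt1 is a factor of the testis and Dmrt3 one of spinal cord interneurons. Dmrt1 had 19 reads in untransfected and 0 reads in transfected cells. This is 1.72 RPKM (interval 1.04 to 2.69) against a floor of 3 reads, or 0.286 RPKM, the 1-sided limit for a count of 0. Against that floor it was at least 6.02-fold lower. The 2-sided exact interval used for the other genes is wider, with an upper limit of 0.352 RPKM and a smallest difference of 4.44-fold. Dmrt3 had 115 and 19 reads (6.16 and 1.07 RPKM) and was 5.75-fold lower (3.52 to 9.90).

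In the GRCr8 annotation Dmrt1 and Dmrt3 are direct neighbours among protein-coding genes of chromosome 1, with 0 others between them. Their promoters are shown because, among lower members with a promoter, these had the largest interval bounds nearest to 1 (4.44-fold and 3.52-fold). Zdhhc2 had a larger bound (9.16-fold) but no promoter. The sequences are given as above, both on the plus strand, at chr1:232568929-232569178 and chr1:232674809-232675058.
Dmrt1: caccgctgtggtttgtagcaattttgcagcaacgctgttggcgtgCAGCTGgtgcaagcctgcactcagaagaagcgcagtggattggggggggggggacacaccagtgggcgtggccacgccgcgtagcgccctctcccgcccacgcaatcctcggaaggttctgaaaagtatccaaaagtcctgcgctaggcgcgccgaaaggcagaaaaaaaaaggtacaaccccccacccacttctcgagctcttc
Dmrt3: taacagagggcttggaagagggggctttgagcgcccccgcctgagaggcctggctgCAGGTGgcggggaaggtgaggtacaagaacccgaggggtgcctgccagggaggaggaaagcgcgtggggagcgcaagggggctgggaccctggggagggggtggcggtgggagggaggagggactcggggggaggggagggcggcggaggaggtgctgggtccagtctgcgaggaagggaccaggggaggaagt
Each window holds 1 E-box and 0 TAAT cores, and GC content is 59.6% for Dmrt1 and 70.4% for Dmrt3. Of the 10 lower members with a promoter, 2 (20%) hold a TAAT core and 6 (60%) an E-box. Of the 29 higher members these numbers were 16 (55.2%) and 17 (58.6%). The other close pair of members, Atf2 and Hoxd13 on chromosome 3, has 3 protein-coding genes between them (Atp5mc3, Lnpk and Evx2, with 0 of them in the table) and differed in direction.

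The ATF proteins are leucine zipper factors of the cyclic AMP and stress pathways. Atf2 and Atf7 are close relatives activated by stress kinases, and Atf3 is a factor made rapidly under stress. Atf2 had 22 and 91 reads (1.52 and 6.63 RPKM), 4.35-fold higher (2.71 to 7.28). Atf7 had 145 and 295 reads (8.31 and 17.8 RPKM), 2.14-fold higher (1.75 to 2.63), but below 1 under median-of-ratios scaling. Atf3 had 40 and 7 reads (2.66 and 0.490 RPKM) and was 5.43-fold lower (2.41 to 14.4). Atf7 was the most abundant of the 3 in both libraries, and Atf3 went from above Atf2 to below it, though their untransfected intervals overlap.

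The E2F genes also split. E2f6, a repressor that lacks an activation domain, was the most abundant member in untransfected cells, with 1290 and 512 reads (67.8 and 28.3 RPKM), and was 2.39-fold lower (2.16 to 2.66). E2f7, an atypical repressor of the late cell cycle, had 9 and 39 reads (0.342 and 1.56 RPKM), 4.56-fold higher (2.17 to 10.7). Even so E2f6 stayed above E2f7 in transfected cells. The other higher members of this group, Tcf7l2, the nuclear effector of Wnt signalling (2.08-fold), and Gtf3c4, a subunit of a general factor for RNA polymerase III (2.07-fold), both turned under median-of-ratios scaling.

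**Figure D4:**
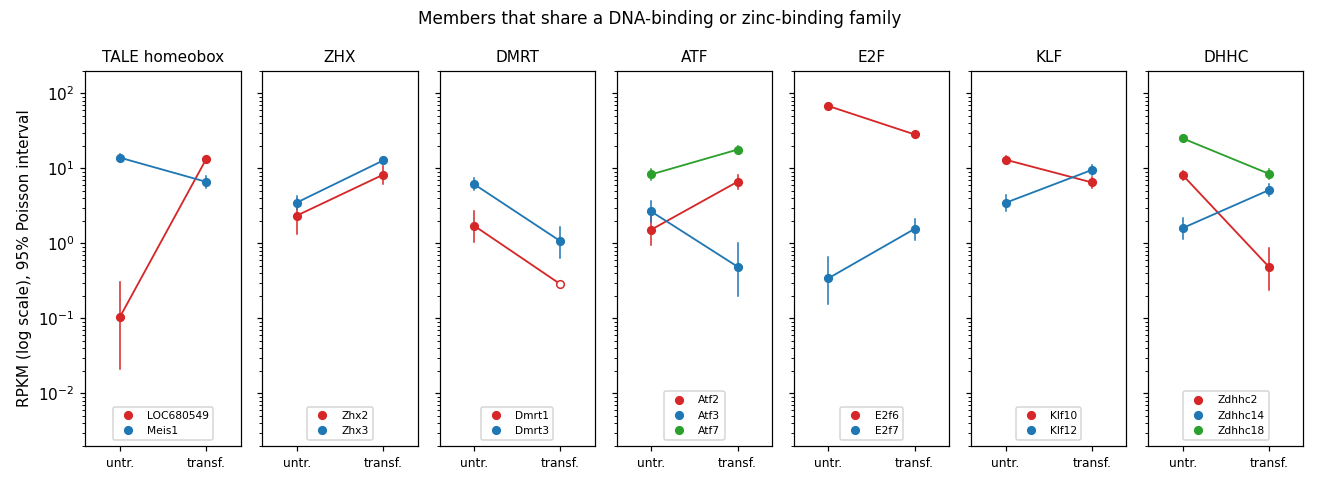
Levels in RPKM (log axis) in the untransfected and transfected library for members that share a family, with 95% Poisson intervals as vertical bars. The families were picked after the values were seen. The DMRT genes are both lower (Dmrt1 open at its 3-read floor of 0.286 RPKM) and the ZHX genes both higher, while the TALE, ATF, E2F, KLF and DHHC groups each hold lines of both directions.

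Zinc finger names made up the largest family, with 21 of 29 higher and 8 lower, beside 63.5% and 36.5% of the whole table. Under median-of-ratios scaling 11 of the 21 went below 1, as did 263 of the 1476 higher genes of the whole table. Their changes were small: 15 of the 21 higher genes stayed under 3-fold, and the median was 2.29-fold for the higher and 2.59-fold for the lower ones. The 18 known mainly by number, most of them proteins with strings of Kruppel-type fingers, were 14 higher and 4 lower. Of these 14, 12 stayed under 3-fold and 9 turned under median-of-ratios scaling. Such genes share finger sequences with many relatives, and the handling of shared reads is not given in the sources, so their single values are uncertain.

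Outside that cluster of small changes stood Znf667 (5 and 29 reads, 6.10-fold higher, interval 2.34 to 20.2) and Zfp862 (30 and 114 reads, 1.13 and 4.51 RPKM, 3.998-fold higher, interval 2.65 to 6.19). Zfp568, a repressor with a KRAB domain needed in the early embryo, had 200 and 39 reads (9.76 and 2.001 RPKM) and was 4.87-fold lower (3.45 to 7.06). Znf703, a co-repressor, had 411 and 855 reads (16.4 and 36.0 RPKM), 2.19-fold higher (1.94 to 2.47), or -0.072 on the log2 scale under median-of-ratios scaling. Zfp423, a factor of preadipocytes and neural precursors, was 2.58-fold higher, and Zfp238, a repressor of the BTB type named Zbtb18 in RefSeq, 2.21-fold lower. The remaining numbered genes ranged from 2.04-fold (Zfp192) to 2.61-fold (Zfp61) among the higher, with Zfp251, Zfp316, Zfp347, Zfp35, Znf689 and 3 predicted loci between them. Among the lower, Zfp827 and Zfp382 were at 2.09-fold and 2.12-fold.

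The other zinc finger members are named after a particular domain. Zmiz1, a co-activator related to the PIAS SUMO ligases, was the most abundant member in transfected cells, with 2010 and 5107 reads (34.2 and 91.3 RPKM), 2.67-fold higher with the narrowest interval of all members (2.54 to 2.82). Zmynd8, a reader of histone marks, had 462 and 942 reads (14.7 and 31.6 RPKM), 2.15-fold higher (1.92 to 2.40) and -0.10 on the log2 scale under median-of-ratios scaling. Zcchc2 had 149 and 667 reads (2.58 and 12.1 RPKM), 4.71-fold higher (3.94 to 5.66). Zmynd17, named Mss51 in RefSeq and known from skeletal muscle, had 5 and 26 reads, 5.47-fold higher (2.07 to 18.2). The CCCH genes Zc3h15 and Zc3h6 were 3.11-fold and 2.03-fold higher, and Zc3h6 turned under median-of-ratios scaling. Zbtb7c, a BTB repressor, had 185 and 57 reads (5.83 and 1.89 RPKM) and was 3.09-fold lower (2.28 to 4.23), and Zswim6 was 2.13-fold lower.

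The largest decrease among all members was in a gene that is no transcription factor. Zdhhc2 encodes a DHHC enzyme, a membrane protein that attaches palmitate to other proteins. It had 194 reads in untransfected and 11 reads in transfected cells (8.13 and 0.485 RPKM) and was 16.8-fold lower (9.16 to 34.1). Zdhhc18, of the same enzyme family, had 574 and 184 reads (25.1 and 8.46 RPKM), 2.97-fold lower (2.51 to 3.52). Zdhhc14 had 38 and 116 reads (1.60 and 5.14 RPKM) and was 3.21-fold higher (2.21 to 4.76). The summed level of the 3 DHHC genes was 34.8 RPKM without and 14.1 RPKM with transfection.

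The table's own gene ontology column gives 19 of the 50 members a nucleic acid binding transcription factor activity. Of these 13 were higher and 6 lower, with a median log2 ratio of 1.10, and among the 31 without it 21 were higher and 10 lower, with a median of 1.06. Another 55 listed genes carry that annotation without being members, 40 higher and 15 lower, beside 63.5% and 36.5% of the whole table. The column is not complete, since Foxs1, Meis1, Bhlha15 and Dmrt1 lack this term.

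Other regulators were looked up in 10 lists of factor families, 225 genes in all, of which 31 were listed, 21 higher and 10 lower. Without the 3 that are members (Atf3, Klf10 and E2f7), 20 were higher and 8 lower. From 28 immediate early and AP-1 factors, which respond within minutes to growth and stress signals, 11 were listed. Of these 7 were higher and 4 lower, near the shares of the whole table. Egr1 was 6.85-fold higher (7.33 and 50.2 RPKM), Nr4a1 2.19-fold and Maff 2.005-fold higher, and Fosl1 3.29-fold lower (23.6 and 7.17 RPKM). Egr3 (24.7-fold, with 2 and 47 reads), Mycn (9.05-fold), Fos (5.49-fold) and Nr4a3 (4.92-fold) were also higher, and Myc was 2.65-fold lower. Nr4a1 and Maff turned under median-of-ratios scaling. The log2 ratios of the other higher genes then ran from 1.10 (Nr4a3) to 3.43 (Egr3). So Atf3 and Klf10, which belong to this list, were among its 4 lower genes.

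All 5 listed genes of 23 NF-kappaB, STAT and interferon regulatory factors were higher, beside 63.5% of the whole table. None of the 5 passed 2-fold under median-of-ratios scaling, and Bcl3 turned. Irf3, a sensor-activated inducer of interferon, was 2.45-fold higher (27.5 and 67.2 RPKM), Nfkb1, the p50 subunit of NF-kappaB, 2.54-fold (12.3 and 31.3 RPKM), Bcl3 2.15-fold and LOC100360982, named Relb in RefSeq, 2.39-fold. From 20 Smad, Id and partner factors 3 were higher and 2 lower, beside 63.5% and 36.5% of the whole table. Id1 and Id2, which block helix-loop-helix factors by pairing with them, were 5.72-fold and 2.78-fold higher. Id4, the other listed Id gene, was 4.48-fold lower, with 33 untransfected and 7 transfected reads. Smad3 was 2.26-fold higher but below 1 under median-of-ratios scaling, and Smad7, an inhibitor of TGF-beta signalling, was 2.18-fold lower. All 3 listed of 27 mesenchymal lineage and skeletal factors were lower, beside 36.5% of the whole table. Among them were Tbx15 (2.36-fold, 44.9 and 19.0 RPKM) and Osr1 (2.69-fold).

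Tead2, a partner of YAP, was the 1 listed of 17 serum response and muscle factors, at 2.51-fold higher. Mybl1 was 2.38-fold lower beside E2f7 as the other listed gene of 16 cell cycle factors. From 30 pancreatic endocrine factors Pdx1 was the 1 listed gene, and of 38 genes in a list of Sox and Hox factors, which does not hold Hoxd13, 0 were listed. Lists of 16 lipid and 22 Notch or proneural factors had 1 and 2 listed genes, all higher, beside 63.5% of the whole table. Genes outside the table were not analysed here.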

How the data were processed

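RNA of 2 libraries (1 per group) was sequenced on an Illumina GA instrument after oligo(dT) selection and random priming, per the labels' protocols. Genome build rn4 is named in the submitters' processing notes. Which aligner and counter were used is not given in the sources. The deposited table gives read counts per gene, whole numbers without scaling, and RPKM computed by the authors from those counts, with 0.001 for 0 reads. The authors' deposited log2 ratio is the ratio of these RPKM values, and its smallest size is 1.00. The authors' deposited p-values and false discovery rates compare 2 libraries and were not used. The gene length column differs from the row's description for LOC680222.

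Counts, length and RPKM implied 1 total per library. Ratios of reads over these totals were computed with exact Clopper-Pearson intervals (95%), levels with Poisson intervals, and a count of 0 was set to 3 reads. The ratio calculation was tested on simulated data. Without molecular identifiers, PCR copies count as reads, so intervals cover counting error only. A gene was called at 2-fold or more with an interval that left out 1. No p-value is given. Scaling alternatives used edgeR 4.0.16 (TMM) and a median of ratios (Python 3.11.15, SciPy 1.17.1).

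Of the members, 49 identifiers matched RefSeq (GRCr8, for names, neighbours and promoters), 10 with another symbol, and 39 had a promoter. Promoter direction was checked by where TATAAA falls on each strand. The members and lists were chosen with earlier results of these data known. Values are given in full for all homeobox, forkhead, helix-loop-helix and Kruppel-like members, the 8 higher and 8 lower members with the largest bound nearest to 1, and the 5 most abundant, predicted symbols left out. Each factor list gives up to 4 genes by level, and list genes named beyond that were chosen after their values were seen. LOC680549 and the values of other members were added after they were seen. The values of 1 member, which stays in all counts, are not reported here. A planned count of finger motifs in proteins was not run.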

Additional observations from a re-analysis of the deposited data

How the results depend on the processing

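Calls in both directions depended on the scaling and on the error assumed. Of 34 higher members, 11 remained called with TMM (background 31.6% higher) and 5 with the median of ratios (background 22%). With ratios of RPKM + 1, which shrink weakly expressed genes, 17 remained, with the counting interval left unchanged. Of 16 lower members, 11 were called with sums of reads over the table (background 31.8% lower) and 11 with ratios of RPKM + 1. The share of all listed genes was not computed for RPKM + 1, so whether these losses are particular to the members cannot be judged. TMM and the median of ratios shift every ratio downward, so they could remove higher calls only. Their assumption of mostly unchanged genes is not met among genes selected for a difference. The median log2 ratio of 1.06 became 1.16 with sums over the table, 0.28 with TMM, 0.87 with RPKM + 1 and -0.14 with the median of ratios. Six4 (-0.16), Zmynd8 (-0.10) and Znf703 (-0.072) were the members that reversed among the 25 recomputed singly, all under the median of ratios. An assumed biological coefficient of variation of 0.4 left 12 higher and 6 lower members (background 33.5% and 17.2%): LOC680549, Hopx, Bhlha15, Znf667, Zmynd17, Zcchc2, E2f7, Atf2, Zfp862, Zhx3, Zhx2 and Zc3h15 higher, and Foxs1, Zfp568, Atf3, Dmrt3, Dmrt1 and Zdhhc2 lower. Without the 29 zinc finger names, 13 were higher and 8 lower (63.5% and 36.5% in the whole table). The annotated 19, a choice made after seeing the data because the planned term occurred in 0 rows, gave 13 higher and 6 lower. A minimum of 30 reads over both libraries (33 higher, 15 lower) and 0.5 added reads (34 and 16) changed little. Depth limits the weakest genes: 9 members had fewer than 100 reads over both libraries. No paired analysis was possible because each group has 1 library.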
